A study of Mus musculus with 96 samples.

Results

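The nuclear-encoded subunits of the mitochondrial respiratory chain and ATP synthase were examined in mouse liver that had been preserved in 8 ways. They were taken as the protein-coding rows of the deposited count table whose symbol begins with Ndufa, Ndufb, Ndufc, Ndufs, Ndufv, Sdha to Sdhd, Uqcr, Cox4 to Cox8 or Atp5, leaving out Ndufaf and Sdhaf assembly factors and names with -ps. This gave 85 genes of the 47373 in the table: 38 of complex I, 4 of complex II, 8 of complex III, 18 of complex IV and 17 of complex V. By this rule Ndufa4 stands with complex I, although it is now counted as a subunit of complex IV, Cyc1 of complex III stands outside, and Cox7a2l and Atp5s stand inside, although they act as a supercomplex assembly factor and an accessory coupling factor.

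The study compared liver of 12 male B6C3F1 mice aged 10 to 11 weeks. In 6 mice phenobarbital (PB) was given at 600 ppm through the drinking water for 7 days, and 6 control mice (Con) had 0 ppm. Frozen liver of each mouse, mixed from several lobes, was the start of every state, so all fixed tissue had been frozen first. The 8 states were 3 months in 10% formalin followed by RNA isolation with an organocatalyst at 55 °C for 18 hours with the PureLink kit (catalyst PureLink), the same incubation with catalyst and the AllPrep kit (catalyst AllPrep), the same incubation and kit without catalyst (heat only), RNA of such tissue heated after isolation at 70 °C for 30 minutes in tris-acetate EDTA (TAE), 3 months in formalin with neither step (3mo formalin), 18 hours in formalin with storage in 70% ethanol up to 3 months (18h formalin), 3 months in 70% ethanol (ethanol), and the frozen tissue itself (frozen). All fixed tissue was embedded in paraffin. Frozen RNA was isolated with RNAzol RT and an RNeasy MinElute column, the 3 incubated states with AllPrep or PureLink, and for the others the kit is not stated in the protocol text at hand. Kit and preservation therefore cannot be told apart in comparisons with frozen liver. Nor can kit and incubation be told apart where the 3 incubated states are set against 3mo formalin. PB activates the nuclear receptor CAR in hepatocytes, and the study asked how far fixation, and steps meant to remove formalin adducts from RNA, change what is read from such tissue.

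The respiratory chain carries electrons from NADH at complex I and from succinate at complex II through complex III and cytochrome c to oxygen at complex IV, and complexes I, III and IV pump protons that drive ATP synthesis in complex V. Most subunits are made from nuclear mRNAs, many of them short and abundant, while a small hydrophobic core is encoded in mitochondrial DNA. Transcription of the nuclear genes is known to involve the factors NRF1, GABP of the ETS family and YY1, and liver, with its oxidative metabolism, is rich in mitochondria.

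RefSeq promoter windows (GRCm38.p6, 250 bases before to 50 after the start) were matched to 67 of the 85 genes and searched on both strands for 3 motifs: GCGCANGCG for NRF1, CCGGAAG for ETS factors and AAGATGGCG for YY1. The NRF1 letters stood in 19 of these promoters (28.4%), against 6.47% of 27025 promoters in all. ETS letters were found in 15 (22.4%), against 9.12% of all promoters, and YY1 letters in 6 (9.0%), against 1.49%. Complex I had 8, 4 and 5 promoters with NRF1, ETS and YY1 letters among 33, complex II had 2, 2 and 0 of 3, complex III 2, 2 and 0 of 5, complex IV 1, 3 and 0 of 13, and complex V 6, 4 and 1 of 13. At least 1 of the 3 motifs stood in 33 of the 67 windows (49.3%), against 15.35% of all promoters. A match is a description of the letters and no evidence of binding. Printed below are the windows of Uqcrc1 and Ndufv1, a pair with some of the largest falls after formalin, and of Ndufb4 and Ndufc2, the pair that passed the test for PB in frozen liver. Capitals mark the NRF1 letters on either strand. The Uqcrc1 window is chr9:108936398-108936697 on the plus strand, that of Ndufb4 is chr16:37654319-37654618 on the minus strand, that of Ndufv1 is chr19:4012706-4013005 on the minus strand and that of Ndufc2 is chr7:97399753-97400052 on the plus strand; the Ndufv1 and Ndufc2 windows hold none of the 3 motifs.
Uqcrc1: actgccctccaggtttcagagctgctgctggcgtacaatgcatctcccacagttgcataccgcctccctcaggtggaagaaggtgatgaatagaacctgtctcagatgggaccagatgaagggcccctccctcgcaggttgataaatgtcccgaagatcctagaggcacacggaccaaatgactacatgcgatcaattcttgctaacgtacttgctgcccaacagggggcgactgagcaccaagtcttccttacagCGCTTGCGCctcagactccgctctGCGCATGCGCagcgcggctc
Ndufb4: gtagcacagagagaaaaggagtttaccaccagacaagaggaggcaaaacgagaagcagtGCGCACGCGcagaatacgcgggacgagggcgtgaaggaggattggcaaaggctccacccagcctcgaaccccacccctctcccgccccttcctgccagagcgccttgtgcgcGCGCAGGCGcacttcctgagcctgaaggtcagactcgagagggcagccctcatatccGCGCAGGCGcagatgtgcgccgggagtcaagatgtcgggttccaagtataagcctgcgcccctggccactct
Ndufv1: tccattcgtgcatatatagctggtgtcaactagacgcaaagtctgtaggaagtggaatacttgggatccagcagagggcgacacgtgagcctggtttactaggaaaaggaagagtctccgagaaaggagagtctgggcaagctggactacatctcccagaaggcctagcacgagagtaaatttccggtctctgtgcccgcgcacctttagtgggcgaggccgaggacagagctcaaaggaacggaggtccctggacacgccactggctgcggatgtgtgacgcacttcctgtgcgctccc
Ndufc2: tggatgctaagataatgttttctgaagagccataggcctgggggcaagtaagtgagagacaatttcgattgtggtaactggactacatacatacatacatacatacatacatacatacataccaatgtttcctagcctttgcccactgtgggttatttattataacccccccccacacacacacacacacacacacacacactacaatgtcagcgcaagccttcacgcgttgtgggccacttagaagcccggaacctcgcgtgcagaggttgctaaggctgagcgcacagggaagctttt

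Library totals ran from 1264563 to 18442730 counts with a median of 11913138 over 96 libraries, and the smallest was 3mo formalin of Con animal 8A. Defining hepatocyte markers were all present (8 of 8), while markers of cardiac muscle, skeletal muscle and fat were near 0 in frozen liver, with medians of the summed level of 0.686 CPM (counts scaled to an equal library size) or less. All genes of the mitochondrial chromosome together took 4.56% ± 0.756 of the counts in catalyst PureLink (SD, n = 12), 4.84% ± 0.707 in catalyst AllPrep, 8.29% ± 3.56 in heat only, 6.4% ± 1.55 in TAE and 9.92% ± 2.41 in 3mo formalin. They took 2.59% ± 0.549 in 18h formalin and 2.74% ± 0.536 in ethanol, against 2.57% ± 0.405 in frozen liver. Of the 85 genes 77 or 78 passed the low-count filter in any 1 comparison, and 7 passed in none: Cox4i2, Cox6a2, Cox6b2, Cox7a1, Cox7b2, Cox8b and Cox8c. Ndufa4l2 passed in 11 of 20 comparisons. Processed copies that the table lists by name (11 of them, such as Ndufb4c and Ndufab1-ps) held 4 to 551 counts over all 96 libraries, but reads of unnamed copies, and of overlapping or antisense genes, cannot be told apart here.

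In frozen liver the levels per length, given as CPM per kilobase of mRNA (CPM per kb, mean ± SD, n = 12), ran from 551.7 down to 0 among the 85 genes. The catalytic beta subunit of ATP synthase, Atp5b, led at 551.7 ± 56.1, and its partner alpha subunit Atp5a1 followed at 397.1 ± 46.8. Their ranges overlapped by little, at 468.1 to 650.5 for Atp5b and 336.5 to 470.7 for Atp5a1. In complex IV the regulatory subunit Cox4i1 was highest at 391.7 ± 35.9, with no overlap to Cox6a1 at 278.5 ± 34.7. Ndufa4 at 369.6 ± 50.2 and the membrane-arm subunit Ndufb9 at 211.1 ± 28.6 led the genes named for complex I. The ubiquinone-binding Uqcrq at 279.5 ± 19.2 and the hinge protein Uqcrh at 263.1 ± 21.3 led complex III, and the flavoprotein Sdha at 154.6 ± 18.3 and the iron-sulfur subunit Sdhb at 143.2 ± 19.8 led complex II.

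Low levels, among genes tested in every comparison, were those of Atp5s at 2.69 ± 0.60, the ATP synthase subunit g Atp5l with a median of 6.19 (range 5.04 to 7.96), Ndufb4 at 8.98 ± 1.66, the acyl carrier protein Ndufab1 at 17.1 ± 0.662 and Ndufs5 at 18.6 ± 2.30 CPM per kb. The membrane anchors of complex II differed, with Sdhd at 126.1 ± 8.16 and Sdhc at 34.3 ± 3.70 and no overlap between them. Uqcrc2, a core protein, at 103.6 ± 9.67 and Uqcrfs1, the Rieske iron-sulfur protein, at 97.1 ± 12.3 were lowest in complex III, within each other's range. When the genes of a complex were put in order, most neighbours overlapped in range: 32 of 37 pairs in complex I, 2 of 3 in complex II, 7 of 7 in complex III, 13 of 17 in complex IV and 12 of 16 in complex V.

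Isoform families showed which copy liver uses. The 3 genes for the identical c-ring peptide of ATP synthase stood at 246.6 ± 31.9 (Atp5g3), 128.2 ± 9.65 (Atp5g1) and 23.4 ± 3.16 CPM per kb (Atp5g2). Cox7a2 was at 162.8 ± 17.3, the related assembly factor Cox7a2l at 45.4 ± 4.85, and the heart and muscle isoform Cox7a1 at 1.19 ± 0.52 CPM per kb. Other isoforms known from muscle, lung or testis were lower still in the 12 frozen libraries: Cox4i2 had 7 counts in all, the muscle isoforms Cox6a2 and Cox8b 3 and 7 counts, and the testis isoform Cox6b2 10 counts. Cox7b2 and Cox8c had 0 counts in all 96 libraries, which allows a mean level of up to 0.00262 CPM (3 counts over the summed totals, counting error only). Ndufa4l2, a hypoxia-linked relative of Ndufa4, was at 0.779 ± 0.336 CPM per kb, with the lowest library at 0.405 and the highest at 1.52. The highest Ndufa4l2 library lay below the lowest Ndufb4 library, at 6.64.

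**Figure D1:**
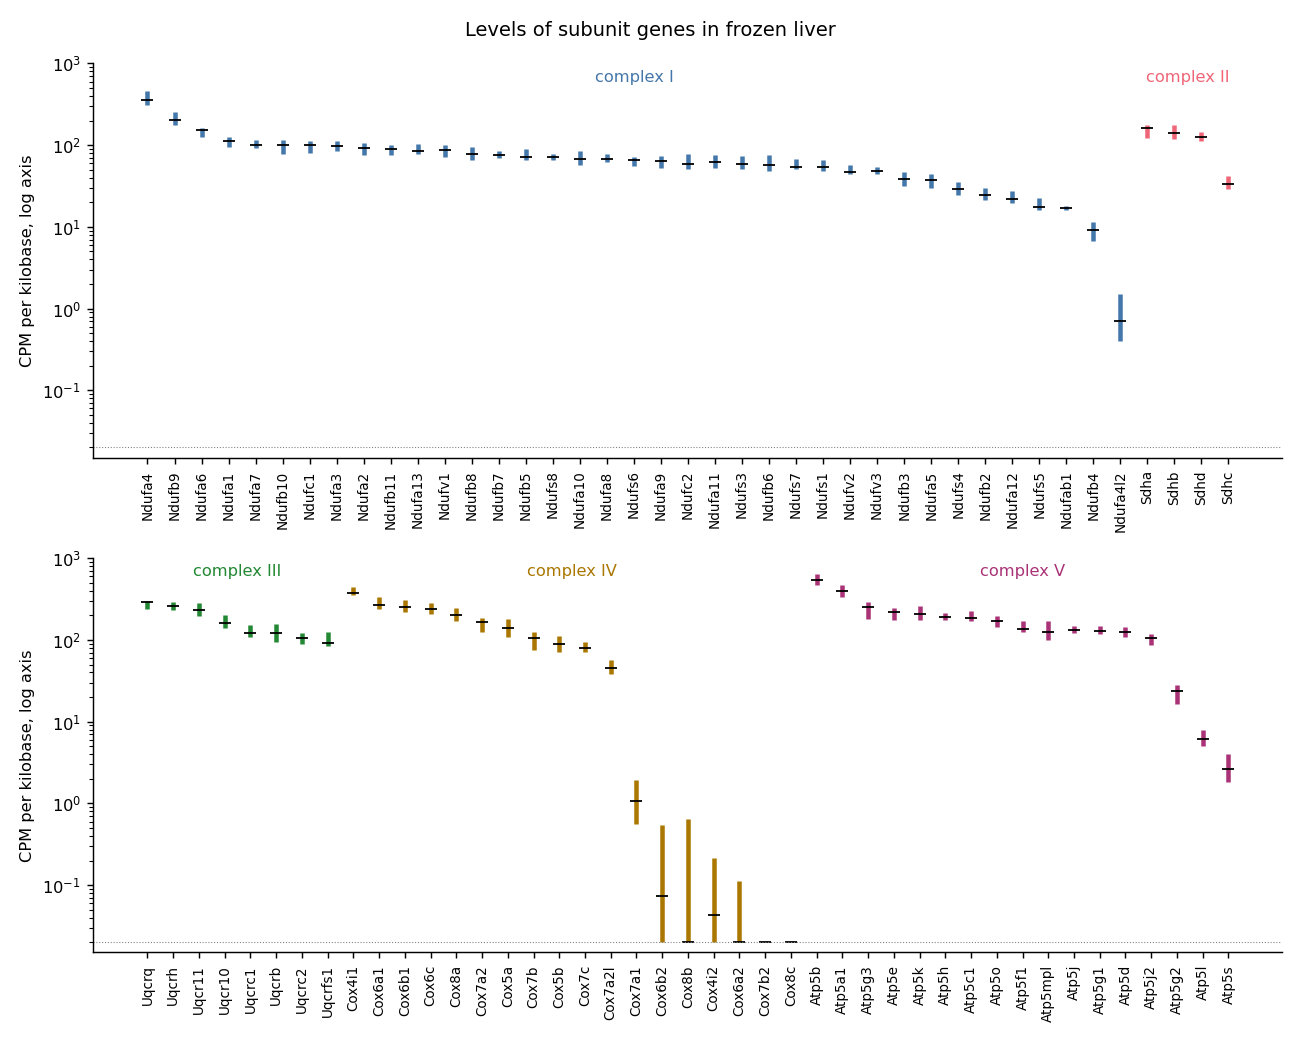
Levels of 84 of the 85 genes in the 12 frozen livers, in CPM per kilobase of mRNA on a log axis, by complex. Each vertical bar runs from the lowest to the highest library with a tick at the median, and values of 0 are drawn on the dotted line near the foot of the plot. Cox4i2, Cox6a2, Cox6b2, Cox7b2, Cox8b and Cox8c of complex IV lie at or near 0, and Cox7a1 overlaps Ndufa4l2 and Atp5s above them.

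Relative to frozen liver the chain's summed mRNA level was lower in every preserved state under TMM scaling, least in 18h formalin, and lower by more in the 5 states that had been 3 months in formalin. Summed over all 85 genes, the level was 5410 ± 412.3 CPM in catalyst PureLink, 6243 ± 674.7 in catalyst AllPrep, 5403 ± 631.9 in heat only, 6316 ± 931.4 in TAE, 5997 ± 1157 in 3mo formalin, 8563 ± 857.5 in 18h formalin and 7833 ± 734.1 in ethanol, against 9259 ± 854.7 CPM in frozen liver (SD, n = 12). Each of the 12 animals had a lower sum in catalyst PureLink, catalyst AllPrep, heat only, TAE, 3mo formalin and ethanol than in its own frozen liver, and in 18h formalin 11 did. The preserved states are set against the same 12 frozen libraries, so their values are not independent of each other. Markers of hepatocytes moved as well, with medians of the log2 fold change over frozen of -0.81 in catalyst PureLink, -0.70 in catalyst AllPrep, -0.96 in heat only, -0.94 in TAE, -0.66 in 3mo formalin, -0.50 in 18h formalin and -0.28 in ethanol, and with 5 of 8 lower in 3mo formalin, 7 in TAE, 18h formalin and ethanol and 8 in the other states. Kupffer cell markers had medians between -0.13 in 18h formalin and -0.84 in heat only, with 4 to 6 of 6 lower, and endothelial markers between -0.07 in 3mo formalin and -0.72 in heat only, with 3 to 6 of 6 lower. Stellate cell markers had medians between -0.15 in 18h formalin and -0.60 in heat only, with 3 to 5 of 6 lower. Erythroid markers ran from a median of 0.19 in 18h formalin, with 3 of 6 higher and 1 lower, to -1.295 in catalyst PureLink, with 5 of 6 lower. The part of these markers in the results was not tested. All states began as the same frozen liver of each mouse. In bulk tissue, fewer cells of a type in a portion and less RNA of these genes read per cell cannot be told apart.

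**Figure D2:**
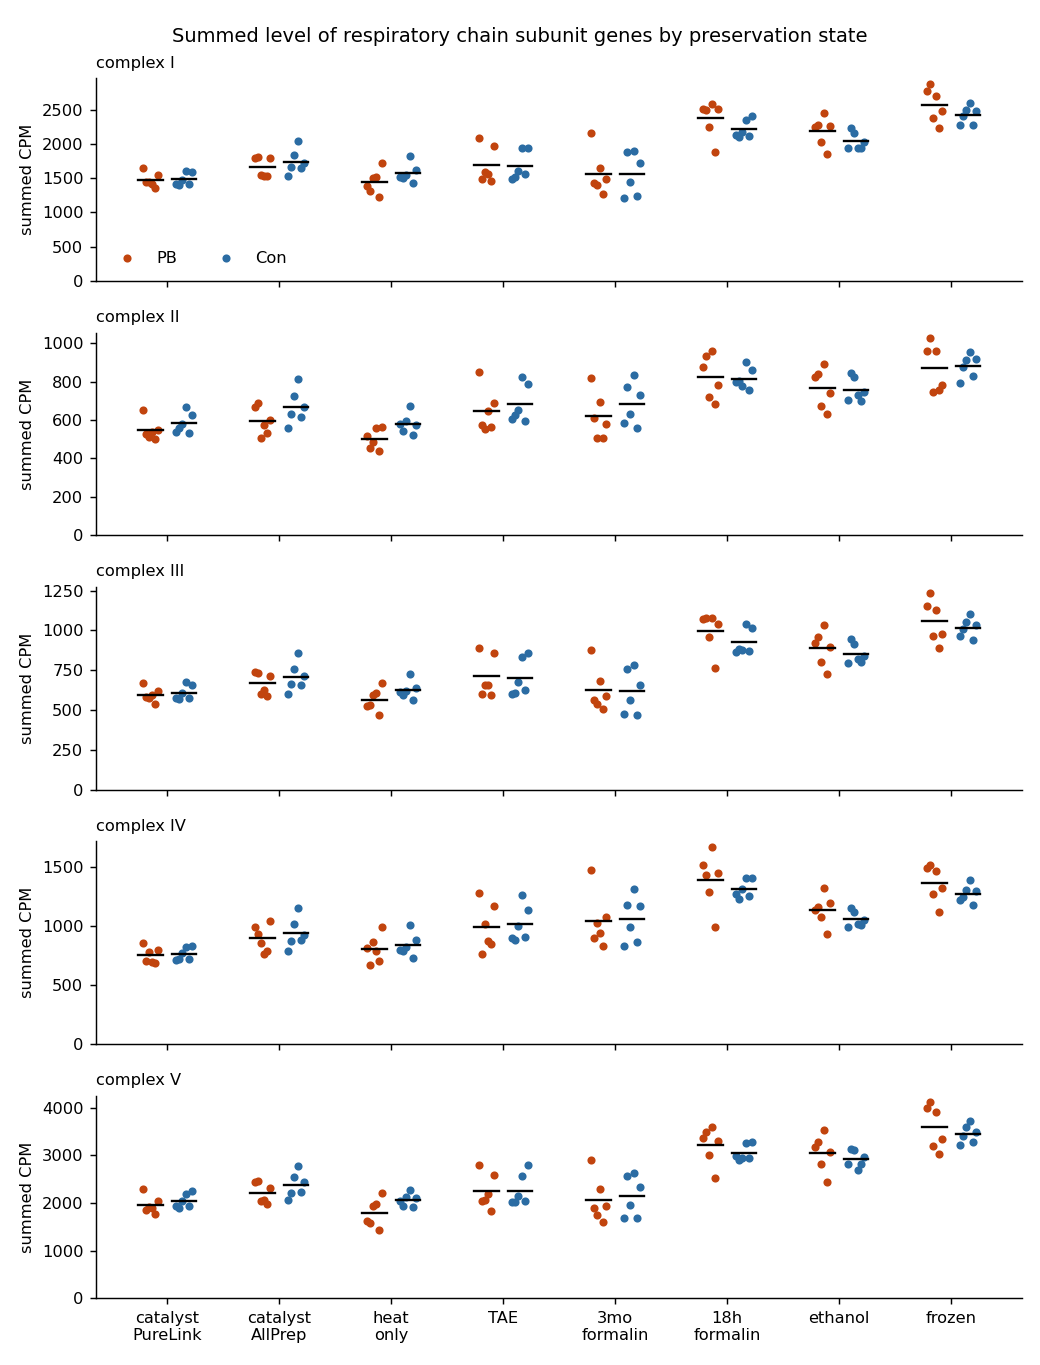
Summed level of each complex in every library, in CPM, in the 8 states, with PB and Con libraries marked and the mean as a black bar. Complex IV in 18h formalin lies at the frozen level, while the states with 3 months in formalin lie below it in all 5 complexes.

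The sums of the complexes differed in size of the mean difference. Abundant genes weigh most in such sums, and no test between complexes was made. In 3mo formalin the mean log2 ratio to frozen over the 12 animals was -0.69 ± 0.22 for complex I, -0.44 ± 0.18 for complex II, -0.76 ± 0.24 for complex III, -0.35 ± 0.24 for complex IV and -0.77 ± 0.23 for complex V (SD). In 18h formalin it was -0.13 ± 0.08, -0.09 ± 0.07, -0.11 ± 0.10, 0.03 ± 0.10 and -0.17 ± 0.09 in the same order of complexes. Complex IV was above frozen in 9 of 12 animals in 18h formalin, whereas complex V was below in 12 of 12. In ethanol the 5 complexes lay close together, between -0.20 ± 0.10 for complex II and -0.27 ± 0.11 for complex IV. In catalyst PureLink they ran from -0.63 ± 0.14 for complex II to -0.81 ± 0.15 for complex V, and in heat only from -0.69 ± 0.21 for complex IV to -0.87 ± 0.25 for complex V. As shares of the library total, with no scaling factor, the sums of all 5 complexes were above frozen in 18h formalin, by 0.02 for complex V to 0.23 for complex IV on the log2 scale, and stayed below in the other 6 states. Medians of single genes, from the fits described next, were -0.49, -0.44, -0.55, -0.32 and -0.57 for complexes I to V in 3mo formalin. In 18h formalin they were -0.06, -0.11, 0.015, 0.08 and -0.11, so the median of complex III was not below 0 there.

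Gene by gene, edgeR's quasi-likelihood test with the animal as a block called a gene where the Benjamini-Hochberg adjusted p over all genes tested was under 0.05. Against frozen liver, 3mo formalin had 62 of 77 genes lower and 10 higher, with a median log2 fold change of -0.47, whereas among all genes tested 32.1% were lower and 33.9% higher, with a median of 0.015. By complex the counts of lower and higher genes were 33 and 4 of 37 in complex I, 3 and 1 of 4 in complex II, 7 and 0 of 8 in complex III, 7 and 3 of 11 in complex IV, and 12 and 2 of 17 in complex V. Every complex held genes that fell beside genes that rose or missed the threshold.

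The largest fall after 3mo formalin was that of Ndufv1, the complex I core subunit that binds FMN and accepts electrons from NADH. Its level had a lowest, median and highest value of 27.6, 40.5 and 65.5 CPM in 3mo formalin, against 119.0, 144.9 and 165.8 CPM in frozen liver. The ranges did not overlap, the level was lower in 12 of 12 animals, and the log2 fold change was -1.65 ± 0.07 (SE, adjusted p = 3.15e-16, edgeR). Among further core subunits of complex I, the iron-sulfur subunit Ndufs1 changed by -0.90, Ndufs3 by -0.75, Ndufs7 by -0.91, Ndufs8 by -1.11 and Ndufv2 by -0.24; Ndufs3, Ndufs7 and Ndufv2 were added after their values were seen. Among accessory subunits Ndufa13 had 23.2, 44.7 and 63.4 CPM in 3mo formalin, against 97.5, 107.1 and 127.7 CPM in frozen liver, a log2 fold change of -1.18 ± 0.07 (adjusted p = 1.23e-13, edgeR). Ndufb10 had 24.6, 27.3 and 43.3 CPM in 3mo formalin, against 56.6, 73.8 and 85.6 CPM in frozen liver, a log2 fold change of -1.20 ± 0.07 (adjusted p = 1.52e-13, edgeR). Neither gene's ranges overlapped. Ndufb6 had the largest p of the complex I genes, with a log2 fold change of -0.23 ± 0.08 (adjusted p = 0.0172, edgeR), and it was lower in 9 of 12 animals.

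Other complex I subunits went the other way in 3mo formalin, and these were picked out after their values were seen. Ndufb4, an accessory subunit of the membrane arm, had 11.5, 16.5 and 22.6 CPM in 3mo formalin, against 6.45, 8.85 and 11.1 CPM in frozen liver. It was higher in 12 of 12 animals without overlap of the ranges, with a log2 fold change of 0.88 ± 0.10 (adjusted p = 1.19e-08, edgeR). Ndufab1, which carries the acyl chain of mitochondrial fatty acid synthesis, had 32.9, 35.9 and 52.5 CPM in 3mo formalin, against 22.6, 24.3 and 25.5 CPM in frozen liver, a rise of 0.70 ± 0.06 (adjusted p = 3.22e-10, edgeR). Ndufb2 rose by 0.43 ± 0.09 and Ndufc1 by 0.38 ± 0.08, each with overlapping ranges. At the other extreme, the low-level subunit Ndufs5 had 0.829, 2.95 and 7.43 CPM in 3mo formalin, against 8.55, 9.24 and 11.99 CPM in frozen liver, a fall of 1.42 ± 0.16.

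In complex II both catalytic subunits and 1 of the membrane anchors were lower, and the other anchor was higher. Sdhb had 52.2, 75.3 and 127.0 CPM in 3mo formalin, against 134.7, 159.2 and 200.3 CPM in frozen liver, with no overlap and a log2 fold change of -0.95 ± 0.07 (adjusted p = 2.09e-12, edgeR). Sdha had 224.6, 308.7 and 420.0 CPM in 3mo formalin, against 352.8, 466.6 and 516.0 CPM in frozen liver, and fell by 0.49 ± 0.05. The anchor Sdhc fell by 0.39 ± 0.05. The other anchor, Sdhd, rose by 0.32 ± 0.06 (adjusted p = 1.6e-05, edgeR), with 143.7, 185.0 and 226.1 CPM in 3mo formalin, against 138.3, 153.5 and 176.7 CPM in frozen liver; it was higher in 11 of 12 animals and the ranges overlapped.

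In complex III the core proteins and the Rieske protein fell. So did Uqcr11, picked after its values were seen, with a log2 fold change of -0.88. Uqcrc1 had 52.1, 68.3 and 111.1 CPM in 3mo formalin, against 178.6, 201.4 and 252.2 CPM in frozen liver, with no overlap and a log2 fold change of -1.44 ± 0.07 (adjusted p = 1.15e-15, edgeR). Uqcrc2 fell by 0.71 ± 0.06 and Uqcrfs1 by 0.64 ± 0.05, both lower in 12 of 12 animals without overlap. Uqcr10, a small subunit beside the Rieske protein, had 36.5, 56.2 and 107.0 CPM in 3mo formalin, against 60.5, 70.4 and 88.4 CPM in frozen liver, a log2 fold change of -0.15 ± 0.08 that missed the threshold (adjusted p = 0.0937, edgeR).

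Complex IV held the most even split. Cox4i1 had 98.7, 133.3 and 191.8 CPM in 3mo formalin, against 263.0, 280.9 and 335.8 CPM in frozen liver, a log2 fold change of -1.02 ± 0.06 (adjusted p = 1.73e-13, edgeR), and the zinc-binding Cox5b fell by 0.98 ± 0.07. Cox6c had 112.9, 140.8 and 219.6 CPM in 3mo formalin, against 106.1, 119.4 and 143.3 CPM in frozen liver, and rose by 0.39 ± 0.06 (adjusted p = 6.54e-07, edgeR) with overlapping ranges. Cox7a2l and Cox8a, picked after their values were seen, also passed the test upward, by 0.36 ± 0.06 and 0.30 ± 0.07. Cox6a1, whose muscle counterpart is nearly silent here, had 119.2, 150.8 and 217.1 CPM in 3mo formalin, against 135.3, 153.7 and 191.6 CPM in frozen liver, and its log2 fold change was 0.02 ± 0.07 (adjusted p = 0.827, edgeR); under 6 of the 8 other settings tried it was negative, between -0.01 and -0.08.

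In complex V the large catalytic subunits fell, while other subunits fell, rose or missed the threshold. Atp5b had 365.9, 467.9 and 672.6 CPM in 3mo formalin, against 896.9, 1034 and 1246 CPM in frozen liver, with a log2 fold change of -1.02 ± 0.06 (adjusted p = 1.26e-13, edgeR). Atp5a1 fell by 0.90 ± 0.06 and the peripheral stalk subunit d, Atp5h, by 0.75 ± 0.05. None of these 3 had overlapping ranges. Coupling factor 6, Atp5j, had 102.8, 123.4 and 157.3 CPM in 3mo formalin, against 81.8, 90.1 and 101.2 CPM in frozen liver, and rose by 0.54 ± 0.05 in 12 of 12 animals. Atp5s rose by 0.67 ± 0.15 with overlapping ranges, and both it and Atp5j were picked after their values were seen. Atp5d, the delta subunit of the rotor, was at -0.06 ± 0.05 (adjusted p = 0.312, edgeR).

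**Figure D3:**
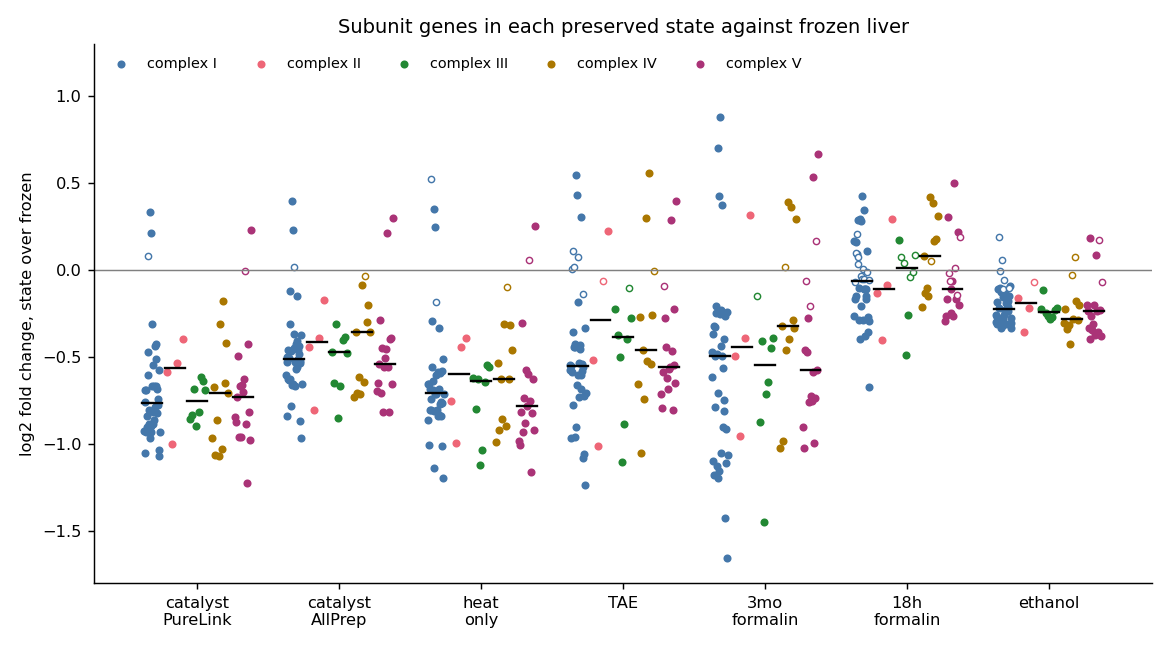
Log2 fold change of each gene in the 7 preserved states over frozen liver, by complex, from edgeR fits with the animal as a block. Filled points passed an adjusted p of 0.05, open points did not, and black bars are medians; points lie mostly below 0 in every state, least so in 18h formalin, where 47 of 78 do, and complex III holds points above 0 in 18h formalin only.

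Formalin for 18 hours gave a mixed and smaller response. Here 36 of 78 genes were lower and 20 higher with a median of -0.06, against 29.7% lower and 28.1% higher among all genes tested. With libraries scaled to their totals the split was 15 lower and 45 higher. The members' median was then 0.13, while the median of all genes moved to 0.18, so the direction of the whole set hangs on the scaling. The shares of all genes called by library totals are not given here, so that split is no result about the chain. Complex IV had 4 lower and 6 higher of 11, and complex I 18 lower and 9 higher of 38. Ndufv1 was again low. It had 69.4, 89.3 and 106.5 CPM in 18h formalin, against 119.0, 144.9 and 165.8 CPM in frozen liver, a log2 fold change of -0.67 ± 0.04 (adjusted p = 8.22e-14, edgeR) without overlap. Ndufs1 fell by 0.38 ± 0.03, Ndufb10 by 0.40 ± 0.04, Sdhb by 0.40 ± 0.03, Uqcrc1 by 0.49 ± 0.04, Uqcrc2 by 0.26 ± 0.03 and Atp5a1 by 0.29 ± 0.03, each in 12 of 12 animals. Sdha fell by 0.13 ± 0.03, but by library totals its value was 0.05.

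Several genes rose in 18h formalin. Atp5j had 103.7, 127.1 and 153.3 CPM in 18h formalin, against 81.8, 90.1 and 101.2 CPM in frozen liver, a log2 fold change of 0.50 ± 0.03 (adjusted p = 2.8e-13, edgeR) without overlap. Cox6c rose by 0.42 ± 0.04, Cox7a2l by 0.39 ± 0.04, Cox8a by 0.31 ± 0.04, Atp5d by 0.31 ± 0.03, Sdhd by 0.29 ± 0.03 and Uqcr10 by 0.17 ± 0.03, with overlapping ranges. Closest to no difference were Ndufs5 at -0.01 ± 0.06, Uqcrh at -0.01 ± 0.03, Cox7a2 at 0.05 ± 0.03 and Atp5j2 at 0.01 ± 0.04. In complex II Sdhc had the largest p and still passed, at -0.08 ± 0.03 (adjusted p = 0.014, edgeR).

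Ethanol, a fixative that makes no formaldehyde adducts, gave an even and small fall. In ethanol 65 of 78 genes were lower and 2 higher with a median of -0.23, against 27.1% lower and 25.8% higher among all genes tested. The 2 higher genes were both of complex V, Atp5d at 0.18 ± 0.03 and Atp5j at 0.09 ± 0.03. Cox6b1 had 97.5, 116.5 and 140.9 CPM in ethanol, against 135.4, 154.9 and 188.5 CPM in frozen liver, a log2 fold change of -0.43 ± 0.04 (adjusted p = 5.1e-11, edgeR) in 12 of 12 animals with overlapping ranges. Ndufb10 fell by 0.32 ± 0.03, Ndufa9, which lies near the quinone site, by 0.33 ± 0.03 and the flavoprotein subunit Ndufv3 by 0.31 ± 0.03. Sdhb fell by 0.36 ± 0.03, Uqcrc1 by 0.26 ± 0.02, Cox6a1 by 0.32 ± 0.03, Cox4i1 by 0.30 ± 0.03, the gamma subunit Atp5c1 by 0.34 ± 0.03 and the epsilon subunit Atp5e by 0.40 ± 0.04. Largest p-values went to Ndufa6 at -0.01 ± 0.03, Sdhd at -0.07 ± 0.03, Uqcr11 at -0.11 ± 0.03, Cox6c at -0.03 ± 0.04 and Atp5s at -0.07 ± 0.09, of which Uqcr11 passed. Ndufv1 was at -0.27 in ethanol and -1.65 in 3mo formalin, each relative to the shared frozen libraries.

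Heating isolated RNA in TAE left most of the chain below frozen: 61 of 78 genes were lower and 8 higher with a median of -0.53, against 32.3% lower and 36.7% higher among all genes tested. Ndufv1 had 43.7, 59.2 and 75.2 CPM in TAE, against 119.0, 144.9 and 165.8 CPM in frozen liver, a log2 fold change of -1.23 ± 0.05 (adjusted p = 8.99e-16, edgeR). Ndufs8, a core subunit with iron-sulfur clusters, fell by 1.06 ± 0.05, Ndufa9 by 0.96 ± 0.04, Sdhb by 1.01 ± 0.05, Uqcrc1 by 1.10 ± 0.05, Uqcrc2 by 0.89 ± 0.05, Cox5b by 1.05 ± 0.06, Cox6b1 by 0.74 ± 0.05, Atp5b by 0.79 ± 0.05 and Atp5a1 by 0.71 ± 0.05. Ndufa2 at 0.01 ± 0.06, Sdhc at -0.06 ± 0.05, Uqcrh at -0.10 ± 0.06, Cox8a at -0.003 ± 0.085 and Atp5d at -0.09 ± 0.06 had the largest p-values of their complexes and did not pass. Cox7a2l had 41.6, 69.9 and 96.7 CPM in TAE, against 41.4, 48.5 and 60.5 CPM in frozen liver, and its rise of 0.56 ± 0.08 was seen in 11 of 12 animals.

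After incubation at 55 °C without catalyst (heat only), 71 of 78 genes were lower than in frozen liver and 3 higher with a median of -0.70, against 33.4% lower and 33.3% higher among all genes tested. Ndufv1 had 42.2, 69.6 and 74.3 CPM in heat only, against 119.0, 144.9 and 165.8 CPM in frozen liver, a log2 fold change of -1.20 ± 0.06 (adjusted p = 5.95e-13, edgeR). The ATP synthase subunit e, Atp5k, had 21.6, 34.2 and 47.0 CPM in heat only, against 66.0, 76.2 and 96.7 CPM in frozen liver, a fall of 1.16 ± 0.07. Both lacked overlap. Uqcrc1 fell by 1.12 ± 0.06, Uqcrc2 by 1.03 ± 0.07, Ndufs8 by 1.01 ± 0.06, Ndufa11 by 1.00 ± 0.06, Sdhb by 0.99 ± 0.06, Cox4i1 by 0.99 ± 0.05, Cox7a2 by 0.90 ± 0.07 and Atp5e by 0.93 ± 0.05. Of the complex IV genes Cox7a2l alone missed the threshold, at -0.09 ± 0.05, and in complex V Atp5j was at 0.06 ± 0.04.

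With catalyst and the AllPrep kit 71 of 77 genes were lower than in frozen liver and 4 higher with a median of -0.50, against 28.6% lower and 34.6% higher among all genes tested. Ndufv1 had 54.4, 72.8 and 82.1 CPM in catalyst AllPrep, against 119.0, 144.9 and 165.8 CPM in frozen liver, a log2 fold change of -0.96 ± 0.04 (adjusted p = 1.41e-16, edgeR). Ndufs8 fell by 0.86 ± 0.04, Ndufa9 by 0.78 ± 0.04, Sdhb by 0.80 ± 0.04, Uqcrc1 by 0.85 ± 0.04, Uqcr11 by 0.65 ± 0.04, Cox4i1 by 0.73 ± 0.05, Cox6b1 by 0.71 ± 0.05, Atp5g1 by 0.82 ± 0.05, Atp5a1 by 0.69 ± 0.04 and Atp5b by 0.65 ± 0.04. Ndufb4 at 0.02 ± 0.10 and Cox7a2l at -0.04 ± 0.05 did not pass. In complexes II, III and V the largest p-values still passed, with Sdhd at -0.17 ± 0.05, Uqcrb at -0.31 ± 0.06 and Atp5l at -0.39 ± 0.12, although Sdhd was at 0.04 by library totals.

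With catalyst and the PureLink kit 73 of 78 genes were lower than in frozen liver and 3 higher with a median of -0.73, against 33.5% lower and 37.8% higher among all genes tested. Atp5k had 28.7, 33.8 and 41.6 CPM in catalyst PureLink, against 66.0, 76.2 and 96.7 CPM in frozen liver, a log2 fold change of -1.22 ± 0.04 (adjusted p = 4.7e-20, edgeR). Ndufv1 had 54.2, 71.7 and 83.0 CPM in catalyst PureLink, against 119.0, 144.9 and 165.8 CPM in frozen liver, a fall of 1.03 ± 0.04. Neither gene's ranges overlapped. Ndufs8 fell by 1.07 ± 0.04, Ndufv3 by 0.93 ± 0.03, Sdhb by 1.00 ± 0.04, Uqcrc1 by 0.90 ± 0.04, Cox6b1 by 1.07 ± 0.05, Cox4i1 by 0.97 ± 0.04, Cox6a1 by 0.86 ± 0.04, the OSCP subunit Atp5o by 0.97 ± 0.04 and Atp5e by 0.96 ± 0.04. All 11 genes of complex IV that passed the filter were lower, with Cox7a2l nearest to 0 at -0.18 ± 0.04, although by library totals that gene was at 0.09. Atp5j at -0.01 ± 0.04 and Ndufa4l2 at 0.08 ± 0.21 did not pass.

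A few genes did not follow the rest, and their values in the 7 states over frozen liver can be read side by side, in the order ethanol, 18h formalin, 3mo formalin, TAE, heat only, catalyst AllPrep, catalyst PureLink. Ndufab1, picked after its values were seen, was at 0.06, 0.29, 0.70, 0.55, 0.35, 0.40 and 0.34, and only the ethanol value missed the threshold. Cox7a2l was at 0.07, 0.39, 0.36, 0.56, -0.09, -0.04 and -0.18. Sdhd was at -0.07, 0.29, 0.32, 0.23, -0.39, -0.17 and -0.40. The values of Cox7a2l and Sdhd in the 3 states incubated at 55 °C turned with the scaling in part: by library totals Cox7a2l was at 0.17, 0.17 and 0.09 in heat only, catalyst AllPrep and catalyst PureLink, and Sdhd at 0.04 in catalyst AllPrep. Ndufv1, for contrast, was at -0.27, -0.67, -1.65, -1.23, -1.20, -0.96 and -1.03, and Uqcrc1 at -0.26, -0.49, -1.44, -1.10, -1.12, -0.85 and -0.90.

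**Figure D4:**
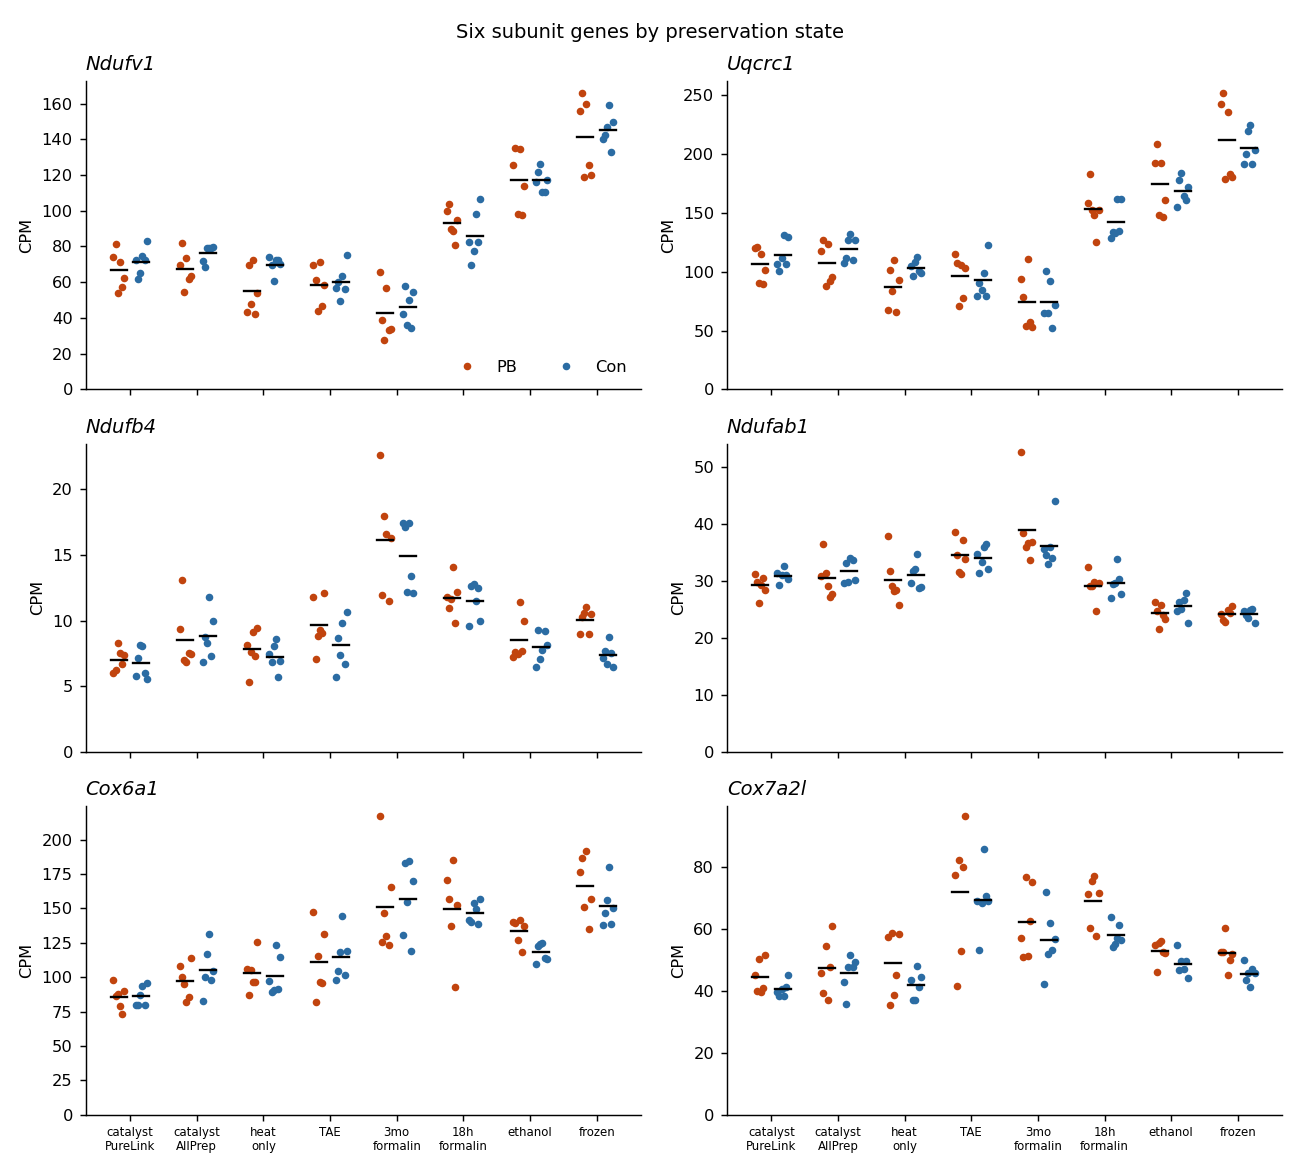
Levels of Ndufv1, Uqcrc1, Ndufb4, Ndufab1, Cox6a1 and Cox7a2l in every library, in CPM, by state, with PB and Con libraries marked. Ndufv1 and Uqcrc1 lie lowest in 3mo formalin, where Ndufb4 and Ndufab1 lie highest.

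The 4 treatments of formalin tissue were next set against 3mo formalin itself, whose 12 libraries these comparisons share. The kit of 3mo formalin is not stated, so for the incubated states a difference of kit cannot be told apart from the incubation. TAE had 24 of 77 genes higher and 13 lower than 3mo formalin with a median of 0.07, against 17% higher and 17.5% lower among all genes tested. Heat only had 13 higher and 38 lower with a median of -0.14, against 28.8% and 27.1%. Catalyst AllPrep had 27 higher and 22 lower with a median of 0.02, against 29.6% and 28.2%, and catalyst PureLink 13 higher and 46 lower with a median of -0.23, against 34.9% and 31.8%. By library totals these splits became 44 higher and 4 lower in TAE, 24 and 18 in heat only, 42 and 10 in catalyst AllPrep, and 27 and 23 in catalyst PureLink, while the median of all genes moved to 0.20, 0.20, 0.19 and 0.24 in the same order. The shares of all genes called by library totals are not given here, so these splits are no result about the chain. Which direction prevails in the set therefore depended on the scaling for heat only and catalyst PureLink.

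Single genes moved by more than that shift. Ndufv1 had 43.7, 59.2 and 75.2 CPM in TAE, against 27.6, 40.5 and 65.5 CPM in 3mo formalin, a rise of 0.43 ± 0.06 (adjusted p = 3.54e-06, edgeR). It rose by 0.70 ± 0.08 in catalyst AllPrep, by 0.65 ± 0.07 in catalyst PureLink and by 0.50 ± 0.10 in heat only, with overlapping ranges each time. Uqcrc1 had 87.9, 114.6 and 131.8 CPM in catalyst AllPrep, against 52.1, 68.3 and 111.1 CPM in 3mo formalin, a rise of 0.60 ± 0.07 (adjusted p = 2.4e-08, edgeR), with 0.58 ± 0.07 in catalyst PureLink and 0.37 ± 0.09 in heat only. Ndufs1 rose by 0.50 ± 0.05 in catalyst AllPrep and Ndufa13 by 0.61 ± 0.07 in TAE and 0.57 ± 0.07 in catalyst AllPrep. Ndufs5, picked after its values were seen, rose by 0.95 ± 0.18 in catalyst AllPrep. Atp5b rose by 0.24 ± 0.06 in TAE and 0.38 ± 0.06 in catalyst AllPrep, and Cox4i1 by 0.38 ± 0.06 in TAE.

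Other genes were lower after the treatments. Ndufb4 had 5.56, 6.94 and 8.28 CPM in catalyst PureLink, against 11.5, 16.5 and 22.6 CPM in 3mo formalin, a log2 fold change of -1.16 ± 0.10 (adjusted p = 2.04e-10, edgeR) without overlap. It was at -1.03 ± 0.10 in heat only, -0.85 ± 0.12 in catalyst AllPrep and -0.79 ± 0.10 in TAE. Cox8a had 55.4, 68.5 and 92.4 CPM in catalyst PureLink, against 99.3, 134.4 and 177.3 CPM in 3mo formalin, a fall of 0.97 ± 0.05 (adjusted p = 8.63e-15, edgeR), with falls of 0.70 ± 0.06 in heat only and 0.64 ± 0.05 in catalyst AllPrep. Sdhd had 99.8, 116.0 and 137.3 CPM in catalyst PureLink, against 143.7, 185.0 and 226.1 CPM in 3mo formalin, and fell by 0.68 ± 0.05, with 0.66 ± 0.06 in heat only and 0.48 ± 0.05 in catalyst AllPrep. Cox6a1 fell by 0.85 ± 0.05 in catalyst PureLink, 0.62 ± 0.06 in catalyst AllPrep, 0.59 ± 0.06 in heat only and 0.46 ± 0.05 in TAE. The proteolipid Atp5mpl fell by 0.96 ± 0.07, 0.56 ± 0.08, 0.76 ± 0.08 and 0.39 ± 0.07 in the same order, Ndufc1 by 0.78 ± 0.07 in catalyst PureLink and 0.67 ± 0.08 in heat only, and Cox6c by 0.67 ± 0.05 in catalyst PureLink. Genes with the largest p-values included Sdhb at 0.002 ± 0.089 in heat only, Ndufa4 at 0.002 ± 0.074 and Cox7b at 0.001 ± 0.053 in catalyst AllPrep, and Sdha at -0.01 ± 0.05 in TAE.

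Catalyst AllPrep and heat only share kit, time and temperature, so this pair isolates the catalyst as far as the labels go. Catalyst AllPrep had 42 of 78 genes higher and 0 lower with a median of 0.16, against 8.08% higher and 5.9% lower among all genes tested with a median of -0.01. The higher genes were 18 of 38 in complex I, 3 of 4 in complex II, 5 of 8 in complex III, 6 of 11 in complex IV and 10 of 17 in complex V. DESeq2 called 39 higher and 0 lower, and limma on the deposited log2 values 45 and 0. In edgeR 58 of the 78 had an unadjusted p under 0.05, against 3961 of 13807 genes tested. Uqcrc2 had 103.9, 116.4 and 151.8 CPM in catalyst AllPrep, against 66.6, 102.5 and 120.3 CPM in heat only, a log2 fold change of 0.33 ± 0.06 (adjusted p = 0.00126, edgeR). Atp5b had 560.3, 643.7 and 783.8 CPM in catalyst AllPrep, against 364.9, 551.2 and 623.2 CPM in heat only, a rise of 0.32 ± 0.06. Ndufs1 had 87.2, 104.3 and 121.7 CPM in catalyst AllPrep, against 74.2, 90.2 and 100.6 CPM in heat only, a rise of 0.24 ± 0.04. In these 3 genes the rise was seen in 12 of 12 animals with overlapping ranges.

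Further rises with the catalyst were those of Sdha by 0.27 ± 0.05, Ndufs4 by 0.29 ± 0.06, Ndufa4 by 0.27 ± 0.05, Uqcrc1 by 0.24 ± 0.05, Cox7b by 0.29 ± 0.05, Cox4i1 by 0.23 ± 0.04, the stalk subunit Atp5f1 by 0.26 ± 0.05 and Atp5a1 by 0.26 ± 0.05. Ndufb7, with an adjusted p of 0.998 in edgeR, Sdhc at 0.02 ± 0.04, Uqcrq at 0.05 ± 0.04, Cox7a2l at 0.03 ± 0.05 and Atp5g2 at -0.01 ± 0.08 were nearest to no difference. Of the hepatocyte markers 5 of 8 were higher and 0 lower in catalyst AllPrep, with a median of 0.17, and 1 of 6 Kupffer cell and 1 of 6 endothelial markers were higher. Stellate cell markers had 3 of 6 higher and a median of 0.16, whereas erythroid markers had 2 of 6 lower and a median of -0.43. Mitochondrially encoded protein genes, of which 7 of 13 passed the filter, moved against the set. All 7 tested were lower in catalyst AllPrep, with a median of -0.70. The share of all genes of the mitochondrial chromosome in the counts was 4.84% ± 0.707 in catalyst AllPrep and 8.29% ± 3.56 in heat only, where 1 PB library reached 16.5%. Without that library 37 genes of the chain were called, all of them higher. Without the animal as a block 3 genes were called higher, and 43 had an unadjusted p under 0.05. The count over all genes in that fit is not given here. What part the mitochondrial share or the markers play in the difference was not tested.

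Other gene lists were read in the same fits, each beside the shares for all genes given above. In 3mo formalin over frozen only 7 of 13 mitochondrially encoded protein genes passed the filter, and the rest were not tested. These 7 were all higher, with a median log2 fold change of 2.18 and mt-Nd2 at 2.67 ± 0.12. Their median was 1.22 in TAE, 1.44 in heat only, 0.78 in catalyst AllPrep and 0.72 in catalyst PureLink, with 7 of 7 higher in each, and -0.24 in 18h formalin with 6 of 7 lower. Assembly factors (45 genes) split more evenly than the subunits, with 17 higher and 18 lower in 3mo formalin and a median of -0.03: Coa5 rose by 1.23 ± 0.06 and Sco2, a copper chaperone of complex IV, by 1.17 ± 0.09, whereas the translational activator Taco1 fell by 1.07 ± 0.08. Of 21 carriers and related genes 12 were lower and 3 higher in 3mo formalin, among them the ADP/ATP carrier Slc25a5 at -1.04 ± 0.06. Regulators of mitochondrial biogenesis (16 genes) had 5 higher, with Yy1 at 0.63 ± 0.05, and 5 lower, with Sirt3 at -0.53 ± 0.06.

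Cytosolic ribosomal protein genes are another list of short mRNAs, with a median length of 681 bases. In 3mo formalin 40 of 77 were higher and 20 lower with a median of 0.15, in TAE 30 and 12 with 0.09, and in 18h formalin 68 and 1 with 0.27. In the 3 states incubated at 55 °C they were mostly lower: 60 of 77 in heat only with a median of -0.35, 52 in catalyst AllPrep with -0.25 and 77 in catalyst PureLink with -0.57. Ethanol had 49 lower and 3 higher with a median of -0.11.

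Chain mRNAs are short, with a median length of 751.5 bases and 51 of 78 under 1000 bases (65.4%), against 2828 bases and 7.0% among 12181 protein-coding genes tested. Their GC content was near that of the rest, with medians of 50.09% and 49.44%. Across the genes, which are not independent replicates and come from the same libraries, the Spearman correlation of log2 fold change with mRNA length was -0.22 in 3mo formalin (n = 77), -0.40 in 18h formalin (n = 78), -0.08 in heat only and 0.13 in catalyst PureLink, whereas over all protein-coding genes it was 0.20, 0.09, 0.31 and 0.38. With GC content it was -0.25 in 3mo formalin, -0.45 in catalyst AllPrep and -0.37 in catalyst PureLink, whereas over all protein-coding genes it was -0.22, -0.14 and -0.08 in the same order. In 3mo formalin the 14 chain genes of 1500 bases or more had a median of -0.76 and 14 of them fell, against a median of 0.02 over all 9636 protein-coding genes of that length. The 12 shortest, under 500 bases, had a median of -0.43, against -0.08 over 98 such genes. After a smooth trend on length or GC over all genes was removed, the members' median in 3mo formalin was -0.34 for exonic length, -0.43 for mRNA length and -0.53 for GC content. In catalyst PureLink it was -0.64, -0.73 and -0.76.

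PB was compared with Con within each state, 6 animals against 6, to ask how much of the drug response in these genes each state returns. In frozen liver 2 of 78 genes were higher and 0 lower with a median log2 fold change of 0.08, against 5.89% higher and 3.53% lower among all genes tested with a median of -0.01. Ndufb4 had a lowest, median and highest level of 8.96, 10.4 and 11.1 CPM in PB livers, against 6.45, 7.35 and 8.74 CPM in Con livers. Every PB liver lay above every Con liver, and the log2 fold change was 0.44 ± 0.10 (SE, adjusted p = 0.0103, edgeR). Ndufc2, another accessory subunit of the membrane arm, had 38.8, 44.8 and 52.8 CPM in PB livers, against 35.4, 39.2 and 40.1 CPM in Con livers, and rose by 0.26 ± 0.07 (adjusted p = 0.0333, edgeR) with overlapping ranges. Both genes passed under each of the other 6 settings tried. In all, 11 of 78 genes had an unadjusted p under 0.05, against 3424 of 13929 genes tested. DESeq2 called 4 higher, and limma on the deposited log2 values 2.

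No other gene of the chain passed the test between PB and Con in frozen liver. Atp5s, picked after its values were seen, was at 0.44 ± 0.14 (adjusted p = 0.0691, edgeR). Complex medians were 0.09 for complex I, 0.03 for complex II, 0.07 for complex III, 0.11 for complex IV and 0.05 for complex V. Of the 78 genes 68 had a log2 fold change above 0, against 6620 of 13929 genes tested. Short protein-coding genes in general were alike. Under 500 bases of mRNA the median was 0.134 for members and 0.131 for all protein-coding genes tested. The pairs were 0.095 and 0.11 from 500 to 750 bases, and 0.078 and 0.101 from 750 to 1000. They were 0.081 and 0.05 from 1000 to 1500 bases, and 0.044 and -0.014 from 1500 bases. The part of length was not tested. Of the ribosomal protein genes 41 of 77 rose, with a median of 0.24. None of the 45 assembly factors tested passed, nor did any of the 7 mitochondrially encoded genes tested. Among regulators of biogenesis the mitochondrial transcription factor Tfam rose by 0.18 ± 0.05 (adjusted p = 0.0372, edgeR), with 47.2, 49.5 and 52.9 CPM in PB livers, against 39.2, 44.4 and 45.8 CPM in Con livers. The mitochondrial RNA polymerase Polrmt fell by 0.20 ± 0.05 and the DNA polymerase Polg by 0.26 ± 0.05. Of the carriers and related genes the electron transfer dehydrogenase Etfdh fell by 0.29 ± 0.08 (adjusted p = 0.039, edgeR). The summed level of 8 hepatocyte markers had a lowest, median and highest value of 86000, 91800 and 112000 CPM in PB livers, against 109000, 119000 and 129000 CPM in Con livers, and the part of this in the results above was not tested.

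In fixed liver few genes of the chain passed. In 18h formalin 1 of 78 did, against 3.45% higher and 1.43% lower among all genes tested: Ndufa8, an accessory subunit with paired cysteine motifs, had 52.5, 60.2 and 69.2 CPM in PB livers, against 46.6, 50.1 and 52.1 CPM in Con livers, and rose by 0.27 ± 0.06 (adjusted p = 0.0199, edgeR) without overlap. DESeq2 and limma called 1 gene each there, and 4 had an unadjusted p under 0.05, against 2626 of 13623 genes tested. Ndufs8 at 0.001 ± 0.077, Sdha at -0.02 ± 0.10, Uqcrc2 at 0.05 ± 0.08, Cox5a at 0.01 ± 0.11 and Atp5j at 0.01 ± 0.08 were nearest to no difference. Outside the subunits, the complex IV assembly factor Coa3 rose by 0.27 ± 0.07 and the ADP/ATP carrier Slc25a4 by 0.61 ± 0.15.

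In ethanol edgeR called 0 of 78 genes, against 4.82% higher and 2.16% lower among all genes tested. An unadjusted p under 0.05 was reached by 12 of the 78 and by 3074 of 13963 genes tested. DESeq2 called 1 and limma 0. The median was 0.12, and 70 of the 78 were above 0, against 7028 of 13963 genes tested. Under 500 bases of mRNA the ethanol median was 0.12 for members and 0.148 for all protein-coding genes tested. From 500 to 750 bases it was 0.135 for each, and from 750 to 1000 it was 0.109 and 0.1. The pairs were 0.085 and 0.057 from 1000 to 1500 bases, and 0.055 and 0.001 from 1500 bases. In 3mo formalin edgeR called 0 of 77 (all genes 1.66% higher, 0.446% lower). There 0 had an unadjusted p under 0.05 (all genes 1609 of 13018), and DESeq2 and limma called 0 each. In TAE edgeR called 0 of 77 (2.35% and 0.941%), with 0 at an unadjusted p under 0.05 (all genes 2107 of 13822) and 0 by DESeq2 or limma. Medians were 0.01 in 3mo formalin and -0.01 in TAE. The spread behind these values was wide: Ndufb4 had 11.5, 16.5 and 22.6 CPM in PB livers of 3mo formalin, against 12.1, 15.3 and 17.5 CPM in Con livers, a log2 fold change of 0.15 ± 0.18 (adjusted p = 0.83, edgeR).

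In the states incubated at 55 °C edgeR called no gene of the chain. In heat only edgeR called 0 of 78 (all genes 3.53% higher, 1.5% lower), with a median of -0.06. An unadjusted p under 0.05 was reached by 8 (all genes 2585 of 13683), and DESeq2 called 2 lower and limma 0. In that state all genes of the mitochondrial chromosome took 10.8% ± 3.52 of the counts in PB livers and 5.82% ± 0.897 in Con livers (SD, n = 6). Of the mitochondrially encoded protein genes 7 of 7 tested were higher with a median of 0.91. Their part in the members' values was not tested. Without the richest of those libraries edgeR still called 0 members. Uqcrc2 came nearest, with 66.6, 81.1 and 102.8 CPM in PB livers, against 102.1, 105.0 and 120.3 CPM in Con livers, a log2 fold change of -0.34 ± 0.10 (adjusted p = 0.0657, edgeR). In catalyst AllPrep edgeR called 0 of 77 (3.12% and 1.82%), with a median of -0.06. There 3 had an unadjusted p under 0.05 (all genes 2603 of 13934), and DESeq2 and limma called 0. In catalyst PureLink edgeR called 0 of 78 (3.21% and 1.44%), with a median of 0.01. There 1 had an unadjusted p under 0.05 (all genes 2472 of 14311), and DESeq2 and limma called 0.

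**Figure D5:**
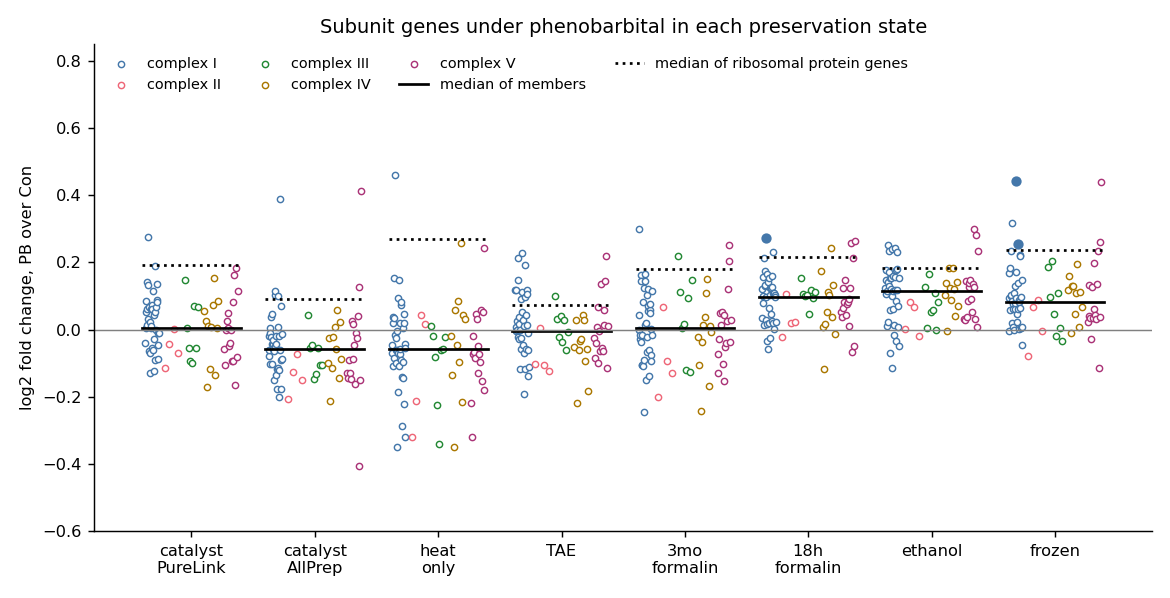
Log2 fold change of each gene in PB over Con livers, by state and complex, 6 animals against 6. Filled points passed an adjusted p of 0.05 in edgeR: 3 points are filled, 2 in frozen and 1 in 18h formalin. Black bars are medians of the chain's genes in each state and lie between -0.06 and 0.12. Dotted bars are medians of the cytosolic ribosomal protein genes.

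An interaction term tested if PB acted on a gene otherwise in fixed than in frozen liver. The main fits left out the animal, although each animal gave both libraries, so they do not use the pairing. The values of single genes below are from these fits. No gene passed in any of the 7 fits, among the chain's genes or among all genes (0% called each). Unadjusted p under 0.05 was reached in edgeR by 1 member in ethanol (all genes 170 of 14583), 2 in 18h formalin (226 of 14565), 0 in 3mo formalin (482 of 14279) and 1 in TAE (211 of 14603). It was reached by 9 in heat only (662 of 14717), 5 in catalyst AllPrep (408 of 14737) and 2 in catalyst PureLink (243 of 14932). Each fit tested 78 members, and DESeq2 called 0 members in each. With the animal as a block the calls among members stayed at 0, with 20 and 21 at an unadjusted p under 0.05 in heat only and catalyst AllPrep. The counts over all genes in the blocked fits are not given here, so these counts are no result about the chain. For Ndufb4 the difference from frozen was between -0.22 ± 0.19 in TAE and -0.51 ± 0.21 in catalyst AllPrep, with adjusted p-values of 1 in 6 fits and 0.999 in heat only. For Ndufa8 the difference in 18h formalin was 0.20 ± 0.08 (adjusted p = 1, edgeR), so its call in 18h formalin and not in frozen liver is no shown difference. Member medians of the difference were -0.004 in ethanol, 0.02 in 18h formalin, -0.11 in 3mo formalin, -0.09 in TAE, -0.18 in heat only, -0.17 in catalyst AllPrep and -0.09 in catalyst PureLink, all measured from the same frozen libraries.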

How the data were processed

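Total RNA-seq libraries (96) of 12 mice in 8 states were read from the authors' deposited table of raw counts per gene; the authors' deposited log2 values served only for an alternative with limma. Per the submitters' processing notes CASAVA, STAR 2.5 and edgeR were used with GRCm38 (mm10); no label or header names the counting tool, its annotation or its strand setting. Per the labels' protocols, libraries were TruSeq stranded total RNA with Ribo-Zero depletion. Symbols came from GENCODE M21 for 46954 of 47373 genes.

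Counts were tested with edgeR 4.0.16 (R 4.3.3; TMM scaling, filterByExpr, quasi-likelihood F test, Benjamini-Hochberg threshold 0.05), after tests on simulated data. States were compared with the animal as a block, PB with Con within each state, and their interaction in a joint model without that block. The numbers pair the samples because portions come from the same animal: over 12747 genes all 336 same-animal library pairs had correlated deviations above 0.1 (median 0.543). Levels are CPM with TMM factors over all libraries. Totals ran from 1264563 to 18442730 counts, and floors and p-values cover counting error and spread among these animals only.

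The genes named are the isoform families, every called subunit in PB against Con in frozen liver, up to 3 called per complex by smallest p and the 1 with the largest p in the other comparisons, the 2 highest and 2 lowest levels per complex, and up to 3 genes per pathway list by smallest p; any other gene named was picked after its values were seen. Values of 1 gene of the set are not reported here, although it is kept in all counts, sums and medians. Members and lists were chosen with earlier results of these data known. Alternatives were RLE scaling, library totals, no filter, no replicate block, leaving out the smallest library, DESeq2 1.42.0 and, between states, leaving out mitochondrial genes and removing a trend on exonic length or GC content; chosen after seeing the data were limma 3.58.1, leaving out mitochondrial genes for PB or the heat-only library richest in them, the mRNA length trend and the blocked interaction.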

Additional observations from a re-analysis of the deposited data

Results flagged for a closer look

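Of 96 groups of 6 libraries that were examined for a single library far from the others, 1 stood out, and chance alone flags about 1 group in 20. The summed level of complex II in PB livers of catalyst PureLink reached 654.8 CPM in 1 animal, and the next library was at 550.0 CPM. By Dixon's test at the 95% level that gap was too wide for 6 libraries, at 0.678 of the group's range.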

How the results depend on the processing

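With libraries scaled to their totals, the members' median log2 fold change over frozen was 0.125 in 18h formalin, -0.302 in TAE, -0.445 in heat only, -0.295 in catalyst AllPrep and -0.469 in catalyst PureLink, while the median of all genes was then 0.175, 0.257, 0.267, 0.245 and 0.294 in the same states. As shares of the library total, the summed levels of complexes I, II, III and V over frozen were -0.14, -0.1, -0.15 and -0.14 in ethanol. For complexes I to V they were 0.07, 0.1, 0.08, 0.23 and 0.02 in 18h formalin, -0.3, -0.13, -0.3, -0.13 and -0.38 in TAE, -0.46, -0.42, -0.53, -0.41 and -0.6 in heat only, -0.31, -0.23, -0.35, -0.28 and -0.38 in catalyst AllPrep, and -0.47, -0.34, -0.5, -0.51 and -0.53 in catalyst PureLink. By library totals these named genes turned from a negative to a positive log2 fold change. Over frozen in ethanol they were Ndufa6 0.08, Sdhd 0.02, Cox6c 0.06 and Atp5s 0.02, and in 18h formalin Ndufs5 0.17, Sdha 0.05, Sdhc 0.1 and Uqcrh 0.17. In TAE they were Sdhc 0.17, Uqcrh 0.12 and Atp5d 0.14, in heat only Cox7a2l 0.17, in catalyst AllPrep Sdhd 0.04 and Cox7a2l 0.17, and in catalyst PureLink Cox7a2l 0.09 and Atp5j 0.26. Over 3mo formalin they were Ndufb8 0.17, Sdha 0.17, Uqcr10 0.11, Cox5b 0.12 and Atp5d 0.16 in TAE, Uqcrq 0.09 in catalyst AllPrep, and Sdhb 0.18 and Cox5b 0.15 in catalyst PureLink. Of these only Sdha and Sdhc in 18h formalin, Sdhd in catalyst AllPrep and Cox7a2l in catalyst PureLink had passed the test under TMM scaling.

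Without the replicate block, which pairs the portions of an animal, edgeR called 36 members in 18h formalin over frozen, 13 in TAE over 3mo formalin and 3 in catalyst AllPrep over heat only, and Atp5l in heat only over 3mo formalin was at -0.06. With the block the interaction of PB with state still had 0 members called in each of the 7 fits. DESeq2 called 4 members for PB in frozen liver, 1 in ethanol and 2 in heat only. The shares of all genes called in these alternative fits are not given here, so their counts of members are no result about the chain. The other sign changes were of values near 0 that had not passed the test in the main comparison. Cox6a1 in 3mo formalin over frozen was at -0.01 by DESeq2 and by RLE scaling, -0.06 by limma, -0.08 with no filter, -0.03 without mitochondrial genes and -0.02 without the smallest library. Ndufa2 in TAE over frozen was at -0.01 by DESeq2, by RLE scaling and with no filter, and -0.05 by limma. Ndufb4 in catalyst AllPrep over frozen was at -0.01 by limma, with no filter and without mitochondrial genes. In TAE over 3mo formalin Ndufb8 was at 0.03 by limma and 0.01 with no filter, Atp5d at 0.01 by limma, and Sdha at 0.01 with no filter and without the smallest library. Without that library Atp5l in heat only over 3mo formalin was at -0.02 and Sdhc in catalyst AllPrep over 3mo formalin at -0.01. By limma Sdhb in catalyst PureLink over 3mo formalin was at 0.02, Atp5g2 in catalyst AllPrep over heat only at 0.01, and Cox5a for PB in 18h formalin at -0.01. Without the heat-only library richest in mitochondrial counts Atp5g2 was at 0.02. Causes of these shifts were not tested. Depth limits the low genes most, among them Atp5l, Atp5s, Ndufb4 and Ndufs5.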
